A study of Mus musculus with 13 samples.

Results

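The OLIG2 sites of newly formed oligodendrocytes (NFOs) were set against the histone marks that oligodendrocyte precursor cells (OPCs), the stage before, already carried. All 16911 OLIG2 called peaks listed for NFOs were taken as sites, out of 175270 called peaks on chromosomes 1 to 19, X and Y in the 8 ChIP-Seq lists. A site carried a mark when it overlapped a called peak of OPC H3K4me3 (18200 peaks) or OPC H3K27me3 (29389 peaks) by at least 1 bp. A site was called shared when it also overlapped one of the 7384 OPC OLIG2 peaks and NFO-only otherwise. There were 1059 shared sites, 6.26% of all, and 15852 NFO-only sites.

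OPCs and NFOs came from untreated C57BL/6 mice at postnatal day 7. After microglia and endothelial cells had been removed on BSL-1 plates, OPCs were caught on plates with an antibody to PDGFRα and NFOs from the remaining cells on plates with an antibody to GalC. OLIG2 was precipitated with antibody AB9610 in a low-cell ChIP, and the histone marks were precipitated from the same cell types. Each combination of cell type and target has 1 library, so no value carries an error between animals or preparations and no test between conditions was possible. Bounds given in brackets are exact binomial (Clopper-Pearson) 95% limits on a share of sites and describe counting error alone. The number of reads behind a called peak is unknown.

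The titles and the antibody labels of the histone libraries disagree, since each library titled H3K4me3 names the antibody to H3K27me3 and the reverse. The titles were used. In the OPC list titled H3K4me3, 74.0% of called peaks lay within 1 kb of a transcription start site (TSS), against 14.9% in the OPC list titled H3K27me3. As a check of the cell types, OPC H3K4me3 lay within 2 kb of a TSS of 18 of 20 OPC identity genes, 18 of 24 neuronal, 9 of 13 astrocyte and 2 of 10 microglia genes, beside 60.7% of all protein-coding genes. In NFOs H3K4me3 lay at 6 of 22 myelin and oligodendrocyte membrane genes, beside 43.6% of all protein-coding genes. In OPCs it lay at 13 of these 22. NFO H3K4me3 also lay at 17 of 20 OPC identity, 14 of 24 neuronal, 8 of 13 astrocyte and 0 of 10 microglia genes. The myelin genes therefore did not set the NFO list apart as that of the later stage.

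OLIG2 is a basic helix-loop-helix transcription factor that specifies the oligodendrocyte lineage and binds E-boxes, whose letters are CANNTG. H3K4me3 is laid down at active and poised promoters, whereas H3K27me3 is written by Polycomb repressive complex 2 and typically covers silent developmental genes in broad domains. Promoters with both marks are termed bivalent and are common at genes that are held back for later use.

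For a view of the sites themselves, the strongest site of each class is printed, with the classes formed by the OPC mark and by the presence of an OPC OLIG2 peak. Each sequence is 101 bases around the centre of the site on the plus strand of mm10 (GRCm38), taken from the strongest site whose window held no exon, and CANNTG is in capitals. The order is shared sites on H3K4me3 alone, H3K27me3 alone, both and neither, then NFO-only sites in the same order.
Atg2a (chr19:6241465-6241565): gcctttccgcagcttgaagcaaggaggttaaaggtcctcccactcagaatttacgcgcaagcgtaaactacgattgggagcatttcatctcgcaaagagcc
Gm47540 (chr10:128592928-128593028): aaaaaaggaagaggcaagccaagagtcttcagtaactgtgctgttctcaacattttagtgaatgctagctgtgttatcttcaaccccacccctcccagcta
Gad1 (chr2:70558250-70558350): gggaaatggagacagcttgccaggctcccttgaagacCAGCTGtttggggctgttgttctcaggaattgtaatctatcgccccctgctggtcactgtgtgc
Rnf114 (chr2:167499075-167499175): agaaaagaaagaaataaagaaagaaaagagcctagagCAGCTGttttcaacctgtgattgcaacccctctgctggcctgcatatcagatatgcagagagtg
Bicra (chr7:16048180-16048280): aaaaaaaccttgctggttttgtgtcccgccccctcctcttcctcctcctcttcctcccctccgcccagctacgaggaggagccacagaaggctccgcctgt
Adap2 (chr11:80148379-80148479): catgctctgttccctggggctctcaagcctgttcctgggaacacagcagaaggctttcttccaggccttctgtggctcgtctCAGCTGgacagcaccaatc
Gm47079 (chr9:21033892-21033992): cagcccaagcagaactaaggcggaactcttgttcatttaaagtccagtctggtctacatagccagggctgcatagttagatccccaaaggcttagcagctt
Zfp292 (chr4:34834921-34835021): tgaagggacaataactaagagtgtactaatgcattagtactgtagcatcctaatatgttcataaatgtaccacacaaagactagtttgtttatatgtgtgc

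The letters CANNTG stood in 3 of these 8 windows, and in all 3 they read CAGCTG. These were the shared sites nearest to a TSS of Gad1 and of Rnf114, both intronic, and the NFO-only site near Adap2. For sites named by the nearest TSS, the intron label covers all annotated genes, so the intron need not belong to the named gene. The windows at Atg2a and Bicra, with a TSS 153 bp and 309 bp away, held 6 and 4 CG dinucleotides, and no other window held more than 1.

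Most NFO OLIG2 sites carried neither mark in OPCs, and where a site carried one, the 2 marks divided the sites differently. OPC H3K4me3 lay at 1057 sites, 6.25% (5.89 to 6.63). It lay at 298 shared sites, 28.1% (25.4 to 31.0), and at 759 NFO-only sites, 4.79% (4.46 to 5.13), so the intervals were far apart. OPC H3K27me3 lay at 1649 sites, 9.75% (9.31 to 10.2), with 140 shared sites, 13.2% (11.2 to 15.4), and 1509 NFO-only sites, 9.52% (9.07 to 9.99). The shares of shared and NFO-only sites were therefore much closer for H3K27me3 than for H3K4me3. Both marks lay at 190 sites, 1.12%, of which 44 were shared and 146 NFO-only. In all 190 the OPC H3K4me3 and H3K27me3 peaks overlapped each other. Both peaks had to meet the same short site to be counted, so this overlap was largely set by the definition. It is not separate evidence that the marks lay together. The 14395 sites with neither mark made up 85.1% of all, 62.8% of shared sites and 86.6% of NFO-only sites. Read the other way, 28.2% of the sites on OPC H3K4me3 were shared (25.5 to 31.0), against 8.49% of those on OPC H3K27me3 (7.19 to 9.94) and 4.62% of those with neither mark (4.28 to 4.98).

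Both marks were met more often than at sites moved elsewhere on the same chromosome. In 1000 circular shifts, in which all sites of a chromosome moved by 1 random offset, an average of 170.5 sites fell on OPC H3K4me3 (lowest 135, highest 219), and the observed 1057 was 6.20 times that. The ratio was 27.8 at shared sites and 4.75 at NFO-only sites. For OPC H3K27me3 the shifts gave 191.6 sites on average (139 to 234) and a ratio of 8.60, with 11.7 at shared and 8.40 at NFO-only sites. NFO-only sites thus stood farther above their shifted positions for H3K27me3 than for H3K4me3, while the reverse held for shared sites. With mark peaks of 1 kb and over alone the order at NFO-only sites turned, with ratios of 3.01 for H3K27me3 and 4.05 for H3K4me3. Moving the sites by only 50 to 500 kb, which keeps them in their neighbourhood, lowered the ratio for H3K4me3 at shared sites to 17.3, the largest move of these ratios under that change, and the order of the 4 ratios was the same.

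**Figure D1:**
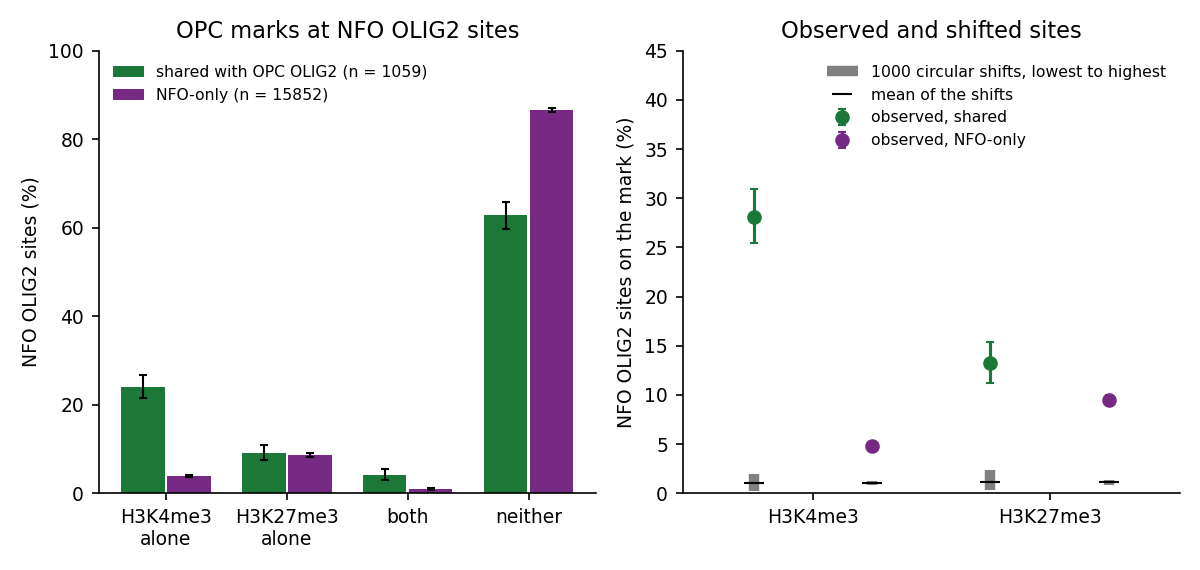
Percent of shared and NFO-only NFO OLIG2 sites on OPC H3K4me3 alone, OPC H3K27me3 alone, both or neither (left, bars), and on each mark with or without the other (right, points) beside the mean (line) and the lowest to highest percent (grey) over 1000 circular shifts, with exact binomial 95% intervals on the observed shares. In the right panel the observed share of shared sites on H3K4me3 (28.1%) stands apart from the other 3, which lie between 4.79% and 13.2%, and the mean shifted shares lie between 1.01% and 1.13%.

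OPC OLIG2 peaks that had no NFO site gave a comparison at the same stage as the marks. Of these 6325 peaks, 631 lay on OPC H3K4me3, 9.98% (9.25 to 10.7), which was below the share of shared sites and above that of NFO-only sites. OPC H3K27me3 lay at 633 of them, 10.0% (9.28 to 10.8), an interval that overlapped that of NFO-only sites and lay below that of shared sites. The H3K27me3 share of NFO-only sites was thus close to that of OLIG2 peaks called in OPCs and not in NFOs.

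The 2 marks were met in called peaks of different width. H3K4me3 peaks of 1 kb and over, 49.6% of all OPC H3K4me3 peaks, held 692 of the 1057 sites on that mark. Of those 692, 75.6% lay within 1 kb of a TSS. H3K27me3 peaks under 300 bp held 705 of the 1649 sites on that mark, and peaks from 300 bp to under 1 kb held 660. Peaks of 1 kb and over, the width closest to a Polycomb domain, held 284. These widths made up 48.0%, 37.1% and 14.9% of all OPC H3K27me3 peaks, so the split of the sites was near that of the list. The narrow H3K27me3 peaks stood farthest above the shifts, at 17.4 times against 10.6 and 3.19 times in the wider classes. This was not particular to H3K27me3, since H3K4me3 gave 15.1, 6.34 and 5.46 times in the same classes. Of the sites in narrow H3K27me3 peaks, 74.0% were more than 3 kb from a TSS, and their median distance from the centre of the mark peak was 50.5 bp. A short distance was largely set by the definition, because a short site had to overlap a narrow peak. OPC OLIG2 peaks without an NFO site showed the same order for H3K27me3, with ratios of 18.0 under 300 bp and 3.14 at 1 kb and over. With H3K27me3 peaks of 1 kb and over alone, the mark lay at 3.12% of shared and 1.58% of NFO-only sites.

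Coverage by each mark was highest at the centre of the site and fell over a short range. The peaks themselves were not all centred there. Marked sites lay a median of 425 bp from the centre of the H3K4me3 peak and 136 bp from that of the H3K27me3 peak. These distances depend on the width of the mark peaks at the sites, with medians of 1424 bp for H3K4me3 and 435 bp for H3K27me3. At the centre of the site, OPC H3K4me3 covered 28.0% of shared and 4.57% of NFO-only sites. At 2 kb to either side it covered 6.33% and 3.87% of shared sites and 1.77% and 1.90% of NFO-only sites. For OPC H3K27me3 the share at the centre was 12.1% of shared and 8.98% of NFO-only sites, and at 2 kb it was 2.27% and 2.74% of shared sites and 1.21% and 1.24% of NFO-only sites. Of NFO-only sites 64.4% were more than 20 kb from the nearest OPC H3K4me3 peak and 68.2% from the nearest OPC H3K27me3 peak, taken 1 mark at a time, and of shared sites 45.8% and 59.5%.

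**Figure D2:**
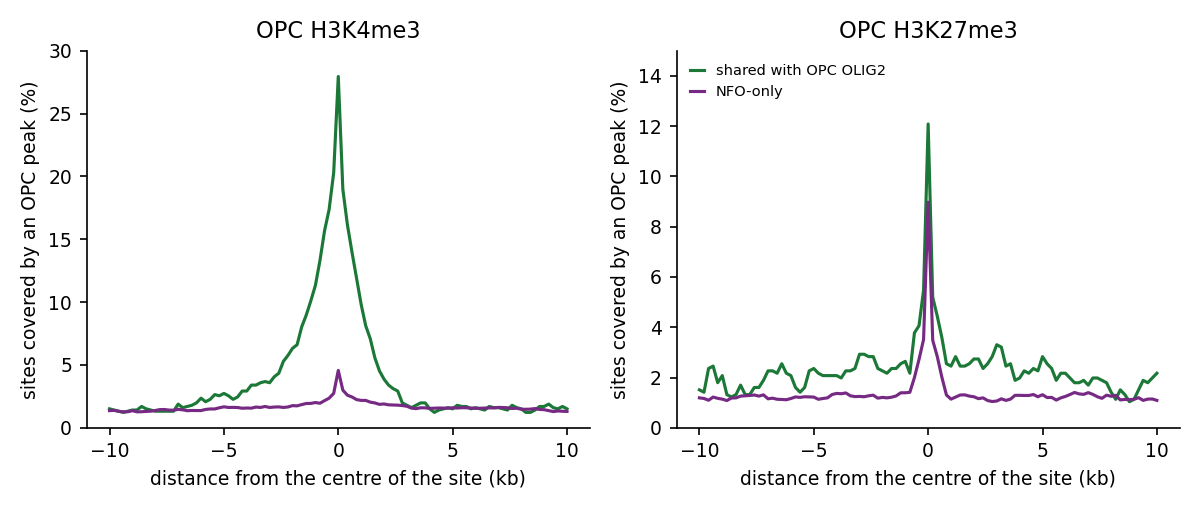
Percent of NFO OLIG2 sites whose position was covered by an OPC H3K4me3 or OPC H3K27me3 called peak, against the distance from the centre of the site in kb along the chromosome, from lower to higher coordinates and without regard to gene strand. Both marks peak at 0 in shared and NFO-only sites, and at 10 kb toward higher coordinates H3K27me3 still covers 2.17% of shared and 1.09% of NFO-only sites.

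Where a site lay relative to genes moved strongly with H3K4me3 and less with H3K27me3. Within 1 kb of a TSS were 264 shared sites, 24.9%, and 1363 NFO-only sites, 8.60%. OPC H3K4me3 lay at 77.3% of these shared sites (71.7 to 82.2) and at 34.5% of these NFO-only sites (32.0 to 37.1). The difference between shared and NFO-only sites was therefore present among promoter sites too. At more than 3 kb from any TSS the mark lay at 54 of 667 shared sites, 8.10%, and 151 of 12625 NFO-only sites, 1.20%. OPC H3K27me3 lay at 9.85% of shared sites within 1 kb of a TSS (6.53 to 14.1) and at 13.4% of NFO-only sites there (11.6 to 15.3), the reverse order with overlapping intervals. At more than 3 kb from any TSS H3K27me3 lay at 13.6% of shared sites (11.1 to 16.5). Among NFO-only sites there it lay at 8.55% (8.07 to 9.06), below their share within 1 kb. In introns H3K27me3 lay at 12.2% of shared and 7.68% of NFO-only sites and between genes at 16.2% and 9.59%. Promoters of protein-coding genes carried H3K4me3 more often than those of long non-coding RNAs, at 81.7% against 56.5% of shared sites and 40.8% against 19.6% of NFO-only sites. When 1 TSS per gene was used, the promoter shares became 84.1% and 44.6%, and with a 2 kb limit they became 67.5% and 24.0%.

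**Figure D3:**
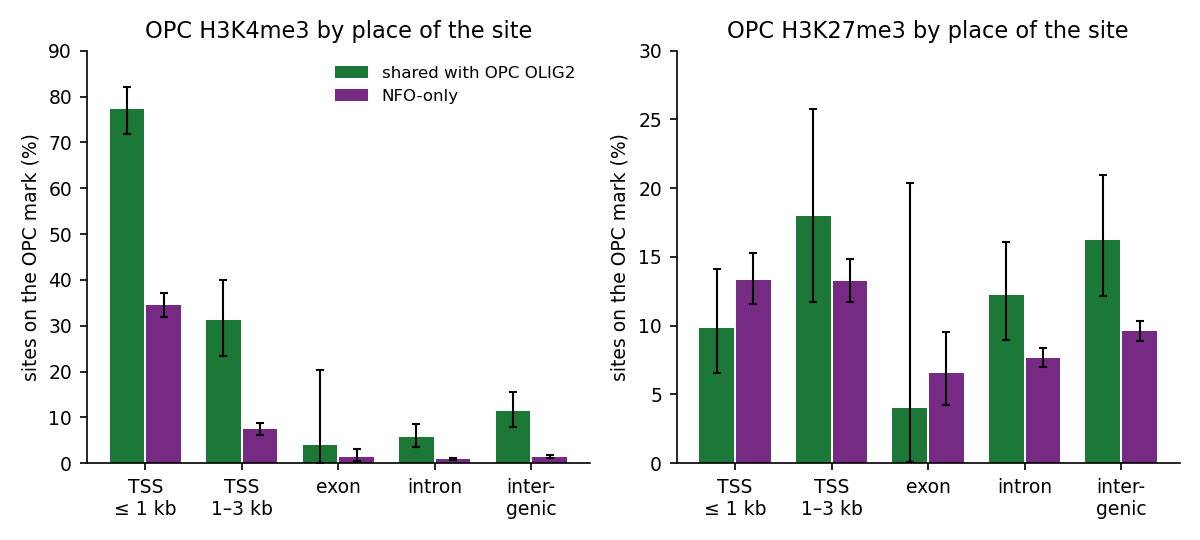
Percent of NFO OLIG2 sites on OPC H3K4me3 (left) and OPC H3K27me3 (right, on a smaller scale) by position relative to genes, for shared and NFO-only sites, with exact binomial 95% intervals. H3K4me3 is highest within 1 kb of a TSS, at 77.3% of shared and 34.5% of NFO-only sites, whereas the H3K27me3 shares stay between 4.0% and 18.0% in all positions.

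The strength of OLIG2 at a site, given as the fold enrichment over input in the NFO list, also moved with H3K4me3. Median fold enrichment was 14.1 at shared sites on OPC H3K4me3, 11.8 at shared sites on H3K27me3 and 10.4 at shared sites with neither mark. The corresponding medians of NFO-only sites were 9.18, 8.31 and 7.88. Among shared sites the share on H3K4me3 was 8.42% up to a fold enrichment of 5, 19.6% from 5 to 10, 34.1% from 10 to 20 and 38.7% from 20 to 40. Among NFO-only sites the same bins held 3.61%, 4.08%, 6.30% and 14.5%. H3K4me3 was therefore more frequent at shared sites in each of these bins, with overlapping intervals in the lowest. Within 1 kb of a TSS the shared and NFO-only shares were 57.9% and 28.3% up to a fold enrichment of 10, 83.3% and 44.8% from 10 to 20 and 88.2% and 64.3% above 20, so shared sites were higher in each of these groups, with overlapping intervals above 20. H3K27me3 lay at 9.85%, 8.78%, 10.3% and 17.2% of NFO-only sites over the bins up to 40 and showed no steady course up to 20. OLIG2 itself was of like strength at both stages on H3K4me3, where the median ratio of NFO to OPC fold enrichment was 0.992 at the 254 shared sites on H3K4me3 alone, against 1.12 at those with neither mark. These fold enrichments come from separate libraries, and their ratio depends on the depth and background of each.

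**Figure D4:**
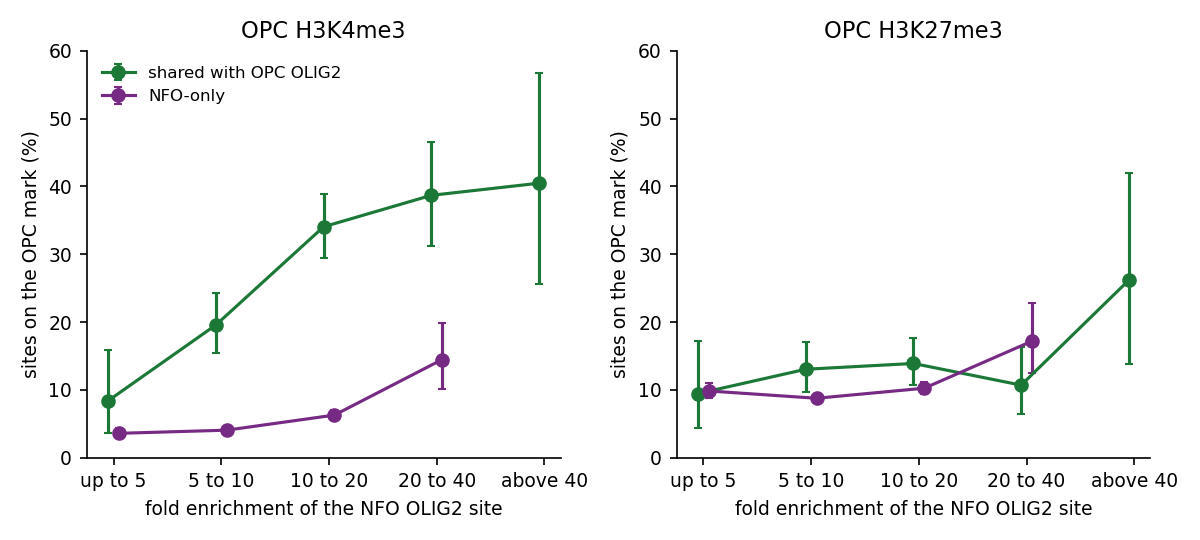
Percent of NFO OLIG2 sites on OPC H3K4me3 and on OPC H3K27me3 in bins of OLIG2 fold enrichment over input, for shared and NFO-only sites, with exact binomial 95% intervals. Shared sites on H3K4me3 go from 8.42% in the lowest bin to 40.5% (17 of 42 sites) above 40, where only 3 NFO-only sites were listed and are not drawn. On H3K27me3 shared and NFO-only sites change places, with 10.7% and 17.2% from 20 to 40.

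The letters of the sites were searched in windows of 200 bp around each centre and in windows 2 kb away, on both strands. A match is a description of the letters and not a bound site. CAGCTG, which is 1 of the forms of CANNTG and reads alike on both strands, stood in 18.7% of shared sites (16.4 to 21.2) against 8.97% of their flanking windows. In NFO-only sites it stood in 8.16% (7.74 to 8.59) against 8.28% of the flanking windows. At shared sites this share differed little between the OPC marks and was 18.1% on H3K4me3 alone, 18.8% on H3K27me3 alone, 18.2% on both and 18.9% with neither mark. It was higher at stronger sites, with 31.9% of shared and 18.8% of NFO-only sites above a fold enrichment of 20. The general form CANNTG stood in 68.1% of shared and 63.5% of NFO-only sites, against 64.6% and 66.5% of flanking windows. The GC-box core GGGCGG followed H3K4me3, standing in 23.2% of shared sites on that mark alone against 4.72% of flanking windows, in 13.7% of NFO-only sites on it alone against 6.93%, in 11.4% of shared and 11.6% of NFO-only sites on both marks against 5.68% and 6.85%, and in 1.68% of NFO-only sites with neither mark against 2.37%. The median number of CG dinucleotides was 7 at shared and 4 at NFO-only sites on H3K4me3 alone and 7 and 5 at those on both marks, with 2 in the flanking windows of each. Windows with more than 50% of their bases in annotated repeats made up 29.2% of NFO-only sites against 24.1% of their flanks, and 17.2% of shared sites against 20.0%. The median percent of bases in repeats was above that of the flanks in both groups, at 34% against 20.5% for NFO-only and 28.5% against 15% for shared sites. The order at shared sites thus depended on the measure.

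The strongest individual sites gave named examples of each class. The strongest of all lay 153 bp from the TSS of Atg2a, which encodes a lipid transfer protein of autophagosome growth, with a fold enrichment of 189 in NFOs and 167 in OPCs inside an OPC H3K4me3 peak of 1790 bp. The next shared sites on H3K4me3 alone were at Ppp1r10, a regulatory subunit of protein phosphatase 1, with 112, and at Ccdc65, a component of motile cilia, with 61.0. All 3 were still on H3K4me3 in NFOs. The strongest shared site on both marks was intronic and lay nearest to a TSS of Gad1, which encodes a GABA-synthesising enzyme of inhibitory neurons. This site had a fold enrichment of 72.4 in NFOs and 62.7 in OPCs. Its OPC H3K4me3 peak was 258 bp wide and its H3K27me3 peak 781 bp, and neither mark was called there in NFOs. Next came sites nearest to Gm38868 (50.3) and Tspan12, a tetraspanin of Frizzled signalling (42.1), which kept H3K4me3 alone. The shared sites on H3K27me3 alone were led by sites near the long non-coding RNAs Gm47540 (62.6) and Gm34335 (57.9) and near 4932438H23Rik (54.0), and those with neither mark by Rnf114, which encodes a ubiquitin ligase, with 103, and by A330048O09Rik (79.3). Among NFO-only sites, the site 5676 bp from the TSS of Adap2, a GTPase-activating protein of Arf6, had a fold enrichment of 107 in an H3K27me3 peak of 1257 bp that was not called in NFOs. The next sites on H3K27me3 alone lay near the long non-coding RNAs Gm34095 (32.1) and Gm11690 (30.6). NFO-only sites on H3K4me3 alone were led by Bicra, a subunit of a SWI/SNF complex, with 39.6, Arl8b, a lysosomal GTPase, with 38.8, and Cnot2, a subunit of the CCR4-NOT deadenylase, with 31.2. NFO-only sites on both marks were led by Dhrs3, a retinaldehyde reductase, with 24.9 on H3K4me3 and H3K27me3 peaks that were called in all of NSCs, OPCs and NFOs. The next of that class were intronic sites nearest to the long non-coding RNAs Gm47079 (24.4) and Gm32957 (22.3). NFO-only sites with neither mark were led by sites in an intron of Zfp292 (46.2), between genes nearest to Mb21d2 (41.4) and in an intron of Abat, a GABA transaminase (37.6), and none of the 3 was on a mark in NFOs.

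Gene lists were then read for sites in the gene body or up to 5 kb upstream of it. A longer gene offers more room for a site, and gene length was not taken into account in any list. Of all protein-coding genes 28% had such a site, and of those with a site 15.6% had one on OPC H3K4me3, 13% on OPC H3K27me3 and 2.25% on both. For 4 of the lists the strongest marked site without an exon in its window is printed in the form used above, to show sites at genes of known role in the lineage, in the order myelin gene, differentiation regulator, patterning gene and inhibitory pathway gene.
Ugt8a (chr3:125936012-125936112): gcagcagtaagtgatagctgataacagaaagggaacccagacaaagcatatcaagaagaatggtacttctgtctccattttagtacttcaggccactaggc
Zfp536 (chr7:37689438-37689538): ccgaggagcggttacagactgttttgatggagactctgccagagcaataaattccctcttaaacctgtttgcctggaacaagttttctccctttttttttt
Hoxc10 (chr15:102969348-102969448): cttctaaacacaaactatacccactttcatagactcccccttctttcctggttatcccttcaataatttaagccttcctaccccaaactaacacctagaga
Lef1 (chr3:131199674-131199774): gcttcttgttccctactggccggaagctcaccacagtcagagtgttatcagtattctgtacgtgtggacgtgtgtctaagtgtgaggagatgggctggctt

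None of these 4 windows held CANNTG. They stood on an OPC H3K4me3 peak at Ugt8a and Zfp536 and on an OPC H3K27me3 peak at Hoxc10 and Lef1.

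Among myelin and oligodendrocyte membrane genes a site lay at 6 of 22, with 1 of the 6 genes on OPC H3K4me3 and 1 on OPC H3K27me3, all near the shares of all protein-coding genes. Ugt8a, whose product makes the galactolipids of myelin, had an intronic NFO-only site of fold enrichment 17.0 on an OPC H3K4me3 peak of 192 bp, and H3K4me3 was called there in NFOs as well. Cldn11, a tight junction protein of myelin, had intronic NFO-only sites of 7.62 and 6.60, both on OPC H3K27me3 and on neither mark in NFOs. Plekhb1 had the third strongest shared site with neither mark (73.6).

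Among regulators of oligodendrocyte differentiation 9 of 21 genes had a site and 4 of these had one on OPC H3K4me3. The shares of all protein-coding genes were 28% and, of those with a site, 15.6%. OPC H3K4me3 also lay within 2 kb of a TSS of 19 of the 21, beside 60.7% of all protein-coding genes. Of the 6 sites on the mark in this list, 3 were at 1 gene, Zfp536. Zfp536, a zinc finger repressor, had 3 intronic sites on H3K4me3 peaks of 279 to 522 bp, with fold enrichments of 3.51, 14.3 and 22.7. Only the one of 14.3 was shared, and all 3 were on H3K4me3 in NSCs and NFOs as well. Tcf7l2, a Wnt effector that acts in differentiation (10.8), and the chromatin remodellers Chd8 (9.69) and Smarca4 (6.85) had NFO-only sites on H3K4me3 peaks of over 1 kb. Enpp6, an early marker of differentiating oligodendrocytes, had a shared site 1634 bp upstream (9.06) on an H3K27me3 peak of 188 bp.

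OPC identity genes had a site at 10 of 20, beside 28% of all protein-coding genes. Of these 10, 2 had a site on OPC H3K4me3 and 1 on OPC H3K27me3. Both shares were near the 15.6% and 13% of all protein-coding genes with a site. Sox4 had a shared site (15.4) and Sox11 an NFO-only site (10.4), both on wide OPC H3K4me3 peaks of 5579 bp and 6775 bp that were also called in NFOs. These SoxC factors act in progenitors. Sox5, a SoxD factor, had an NFO-only site of 4.42 on an OPC H3K27me3 peak of 419 bp that was on H3K4me3 in NFOs.

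Patterning genes of the homeobox, Pax, Gata and Tbx families were the list with the largest share on H3K27me3. A site lay at 17 of 62 genes, and 15 of these 17 had one on OPC H3K27me3, beside 13% of all protein-coding genes with a site. H3K27me3 lay within 2 kb of a TSS at all 62 of them, beside 16.4% of protein-coding genes. Of 23 pairs of a gene and a site, in which 1 site was counted for both Hoxa2 and Hoxa3, 18 were on OPC H3K27me3, and the mark was still called at all 18 in NFOs. A shared site made up 1 of the 23 pairs, at Irx5, beside 777 of 9852 such pairs over all protein-coding genes, a similar share. The domains were broad, with 37549 bp at Hoxa10 (site of 7.40), 35528 bp at Hoxc10 (16.1) and 32873 bp at Tbx15 (7.93 and 6.39). Other sites in such domains were at Pax6 (11.97), a regulator of neural progenitors, Pax3 (10.98), Tbx4 (13.5) and Hoxb9 (11.1). Tbx3 (15.5), Gata2 (7.57) and Irx5 (13.9 and 7.44) carried both marks in OPCs and in NFOs.

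Neuronal genes had a site at 6 of 24, and 3 of these 6 had a site on both marks, beside 2.25% of all protein-coding genes with a site. These were Gad1, Dlx6, an interneuron homeobox gene (6.26, in an H3K27me3 domain of 25375 bp that was called in NFOs too), and Bcl11b, a zinc finger factor of projection neurons (13.3, on an H3K27me3 peak of 195 bp that was not called in NFOs). OPC H3K27me3 lay within 2 kb of a TSS of 21 of the 24.

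Genes of the Notch, BMP and Wnt pathways, which restrain oligodendrocyte differentiation, had a site at 14 of 26, and 6 of the 14 had one on OPC H3K4me3. Among all protein-coding genes 28% had a site, and 15.6% of those had one on OPC H3K4me3. The promoters of this list were also more often marked, with OPC H3K4me3 within 2 kb of a TSS at all 26 genes, beside 60.7% of all protein-coding genes. The receptor gene Notch1 had a shared site (22.0) in an exon, and its ligand gene Jag1 had an NFO-only site 42 bp upstream (11.1). Among inhibitors of these pathways, Smad7 (15.5) and Axin2 (3.93) had NFO-only sites on H3K4me3, as did the BMP effector Smad1 (4.48). The ligand gene Bmp4 had an NFO-only site 3723 bp upstream (11.7) on an OPC H3K27me3 peak of 261 bp, and H3K27me3 was called there in all 3 stages. Lef1, a nuclear effector of Wnt signalling, had intronic NFO-only sites of 10.3 and 11.8 on H3K27me3, Notch2 had one of 4.21, and Lgr5, an R-spondin receptor, had one site on both marks (shared, 8.33) and one on H3K27me3 alone (5.25). Of the cholesterol synthesis genes 8 of 18 had a site, and the only marked one was at Srebf1, a regulator of lipid synthesis (7.31), on both marks.

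Genes of other cell types were read the same way, beside the 28% of all protein-coding genes with a site. Astrocyte genes had a site at 8 of 13, with Sox9 (14.4, shared) and Id3 (8.30) on H3K4me3 and Fgfr3 (7.30) and a second site of Id3 (7.24, shared) on H3K27me3. Microglia genes had a site at 4 of 10 and endothelial genes at 3 of 8, and none of those sites carried either mark. In OPCs H3K4me3 lay within 2 kb of a TSS of 2 of 10 microglia and 3 of 8 endothelial genes.

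Over the 3 stages, H3K4me3 at the NFO sites stayed in place where OPCs carried it and H3K27me3 mostly did not. NSCs are C57BL/6 in the labels, whereas the methods of the study describe cultured cells from the cortex of CD-1 embryos, so strain and culture cannot be told apart from stage in the NSC values. Of the shared sites on OPC H3K4me3, 283 of 298 were on NFO H3K4me3, 94.97% (91.8 to 97.2), and of the NFO-only sites 641 of 759, 84.5% (81.7 to 87.0). Sites on OPC H3K27me3 were on NFO H3K27me3 at 37 of 140 shared sites, 26.4% (19.3 to 34.5), and at 339 of 1509 NFO-only sites, 22.5%. More of the shared ones were on NFO H3K4me3, at 36.4% against 16.8% of NFO-only ones, and 52.1% and 69.4% carried neither mark in NFOs. However, 44 of the 140 shared and 146 of the 1509 NFO-only sites already carried both marks in OPCs. At sites on OPC H3K27me3 alone, NFO H3K4me3 lay at 10.4% of shared (5.11 to 18.3) and 8.88% of NFO-only sites (7.42 to 10.5). Of these sites, 74.0% of shared and 76.2% of NFO-only ones carried neither mark in NFOs. Over all sites, H3K27me3 lay at 15.9% of NFO-only sites in NSCs, 9.52% in OPCs and 2.35% in NFOs, while H3K4me3 lay at 12.3%, 4.79% and 6.72%. The lists behind these shares differ in size, with 36021, 29389 and 12676 H3K27me3 peaks in NSCs, OPCs and NFOs. The H3K4me3 lists hold 33188, 18200 and 21501 peaks, the same order as the H3K4me3 shares. The part of list size was not tested for either mark.

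Taken per mark peak, 1022 of the 18200 OPC H3K4me3 peaks held an NFO site, and 90.9% of these were met by an NFO H3K4me3 peak (89.0 to 92.6), against 54.7% of peaks without a site (53.9 to 55.4). Peaks with a site were wider, with medians of 1391.5 and 973 bp. The difference was also found within widths, at 95.9% against 74.6% for peaks of 1 kb and over and at 76.0% against 30.2% for peaks under 300 bp. Peaks with a site were also stronger within these widths, with median fold enrichments of 8.58 against 6.59 and 5.78 against 4.06, and the part of strength was not tested. For OPC H3K27me3, 1618 of 29389 peaks held a site, and 23.8% of these (21.7 to 25.9) and 25.5% of the others (24.9 to 26.0) were met by an NFO H3K27me3 peak. For H3K27me3 this share moved with width, at 69.3% and 76.0% at 1 kb and over, 15.6% (12.9 to 18.6) and 23.5% (22.7 to 24.4) from 300 bp to under 1 kb, and 14.3% and 11.4% under 300 bp, given for peaks with and without a site.

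**Figure D5:**
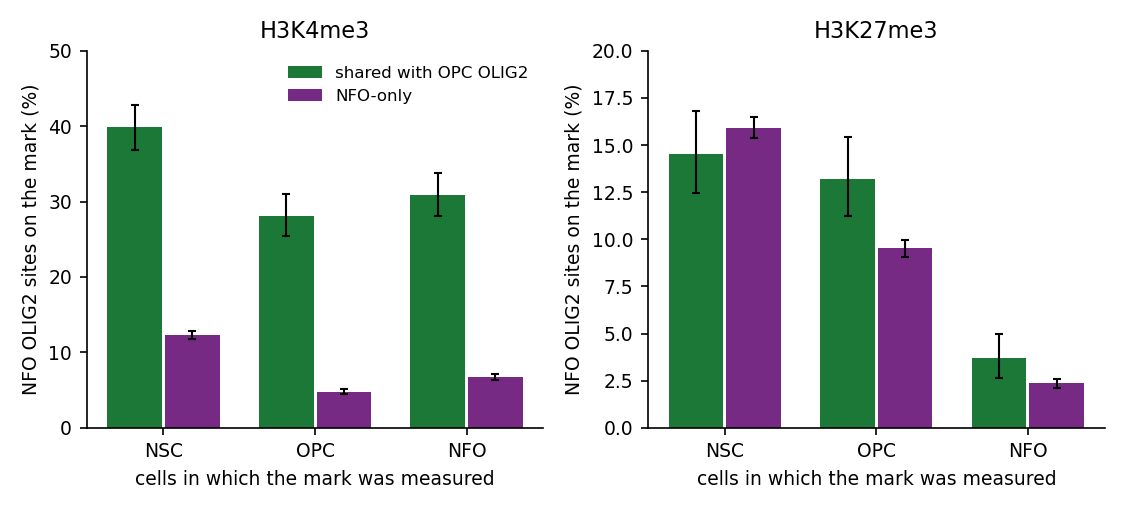
Percent of NFO OLIG2 sites on H3K4me3 and on H3K27me3 called peaks of NSCs, OPCs and NFOs, for shared and NFO-only sites, with exact binomial 95% intervals. Shared sites lie above NFO-only sites for H3K4me3 at each stage (39.8%, 28.1% and 30.9%), and the H3K27me3 shares are lowest in NFOs (3.68% and 2.35%).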

How the data were processed

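The deposited called peak lists of 8 ChIP-Seq libraries were used. The authors aligned reads to mm10 with Bowtie2 and kept unique reads. SPP was their peak caller for OLIG2 and MACS2, in broad mode, for the histone marks, each on a single library with blacklisted regions removed. Tool versions are not given in the sources used here. Deposited with each peak are its ratio over input (fold enrichment) and its FDR as −log10, but no read counts, so depth is unknown. Input and RIP-Seq libraries were not used here.

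Peaks on chromosomes 1 to 19, X and Y were kept without further filters, and overlap needed 1 bp. Circular shifts (1000, seed 20) gave a positional background. Shares carry exact binomial 95% intervals. Sites are not replicates and no p-value was computed. The overlap and shift code was tested on simulated data. Genes were those of GENCODE M21 with NCBI long non-coding RNAs on GRCm38 (43281 genes, of which 21951 are protein-coding), and sequence and soft-masked repeats came from the GRCm38 reference. Named genes were those nearest to the 3 strongest sites of each class of mark and OPC OLIG2, and genes of the lists with a marked site. The sites, classes and lists were chosen with earlier results of these data known. Alternatives changed the peak filters, the overlap, the mark width, the split, the shifts and the TSS definition. Tables were handled in pandas 2.3.3 and NumPy 2.4.6 under Python 3.11.15, intervals came from SciPy 1.17.1, sequence was read with pysam 0.24.0, and plots were drawn in Matplotlib 3.10.9.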

Additional observations from a re-analysis of the deposited data

How the results depend on the processing

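Each group of sites in each comparison rests on 1 library, so no library could be left out, and a site called in one stage and missed in another may differ by depth, which the lists do not give. Under 7 other settings no ratio to the shifts fell to 1 and shared sites kept the higher share on H3K4me3. Values follow for shared and then NFO-only sites, where they moved by more than counting error. With the peak filters of the study's methods (fold enrichment over 5 for OLIG2 and over 3.5 for the marks) the H3K4me3 ratio at shared sites was 31.4, and the H3K27me3 shares were 9.95% and 6.82%. With stricter limits (over 10 and over 5) the H3K4me3 shares were 39.8% and 6.42% with ratios of 49.4 and 8.09, and the H3K27me3 shares were 5.04% and 4.36% with a ratio of 10.5 at NFO-only sites. With the centre of the site inside the mark the H3K4me3 ratios were 32.8 and 5.43, the H3K27me3 ratios 13.9 and 10.4, and the H3K27me3 share of NFO-only sites 8.98%. With a mark within 1 kb the H3K4me3 ratios were 12.1 and 2.63 and the H3K27me3 ratios 4.62 and 3.37, and the NFO-only shares were 6.30% and 10.7%. With marks of at least 1 kb the H3K4me3 shares were 19.9% and 3.03% with a ratio of 4.05 at NFO-only sites, and the H3K27me3 shares were 3.12% and 1.58% with ratios of 5.71 and 3.01. Local shifts gave H3K4me3 ratios of 17.3 and 3.56 and H3K27me3 ratios of 7.89 and 6.59. At promoters the H3K4me3 shares were 84.1% and 44.6% with 1 TSS per gene and 67.5% and 24.0% within 2 kb. The cause of these moves was not tested. An OPC OLIG2 peak within 500 bp in place of an overlap moved none of the 8 shares and ratios. In all, 36 values moved and 24 did not. No paired analysis was possible because each cell type and target has 1 library and no test was run between groups.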
